A study of Homo sapiens with 16 samples.

Results

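Mitochondrial DNA supplies 6 mRNAs for the oxygen-consuming and ATP-making end of respiration: COX1, COX2 and COX3 for cytochrome c oxidase (complex IV), CYTB for cytochrome b of complex III, and ATP6 and ATP8 for the ATP synthase (complex V). They were taken as the rows of the deposited expression table that carry these symbols in the mitochondrial genome, and they make up 6 of its 19898 rows. The cells were SH-SY5Y, a human neuroblastoma line, brought towards a dopamine neuron-like state for 15 days either in flat dishes (2D) or in a scaffold of silk and collagen (3D). On day 13, some cultures received 1 mM 1-methyl-4-phenylpyridinium (MPP), a compound known to block complex I, for 48 h. The design has 4 groups of 4 RNA-seq libraries, namely 2D cultures untreated or MPP-treated and 3D cultures untreated or MPP-treated. All groups share the cell line, the differentiation and its length, and no group carries a genetic change of its own according to the labels. At harvest the dishes were emptied with a detaching enzyme while scaffolds were lysed whole, per the labels, so the culture format and this step cannot be told apart.

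Each strand of the circular mitochondrial genome is transcribed into long precursor RNAs, which are cut into mRNAs, rRNAs and tRNAs, largely at the tRNAs that lie between genes. The mRNAs then receive short poly-A tails, and their products are built into complexes together with many subunits made from nuclear genes. Complex III, of which cytochrome b is a part, passes electrons to cytochrome c, and cytochrome c oxidase hands them to oxygen. The ATP synthase uses the proton gradient that results. Neurons depend heavily on this route for ATP.

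All 6 genes lie on the plus strand of GRCh38 chromosome M, have no introns, and were placed with GENCODE release 29. COX1 spans chrM:5904-7445, COX2 chrM:7586-8269, ATP8 chrM:8366-8572, ATP6 chrM:8527-9207, COX3 chrM:9207-9990 and CYTB chrM:14747-15887. The libraries were captured on poly-T beads, so the 3′ ends are shown first, as the last 30 bases of each gene, 5′ to 3′, with the annotated stop or its beginning in capitals.
COX1: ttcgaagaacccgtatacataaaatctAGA
COX2: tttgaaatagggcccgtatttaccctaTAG
COX3: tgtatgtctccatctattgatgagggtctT
CYTB: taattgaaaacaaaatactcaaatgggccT
ATP6: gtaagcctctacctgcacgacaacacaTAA
ATP8: tcgcttcattcattgcccccacaatccTAG
COX3 and CYTB end in a lone T, and it is the poly-A tail that turns such an end into a complete stop codon. In the others the annotated gene ends in a whole stop codon, and AGA serves as a stop in human mitochondria. For ATP6 the last base of that codon is also the first base of COX3. Whether the mRNA of ATP6 keeps that base after cutting was not tested.

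ATP8 and ATP6 are carried on the same mRNA in overlapping reading frames, and ATP6 touches COX3 with no tRNA between them. The whole of ATP8 and the junction of ATP6 with COX3 (chrM:9178-9236) are shown for these overlaps, with the shared bases in capitals.
ATP8: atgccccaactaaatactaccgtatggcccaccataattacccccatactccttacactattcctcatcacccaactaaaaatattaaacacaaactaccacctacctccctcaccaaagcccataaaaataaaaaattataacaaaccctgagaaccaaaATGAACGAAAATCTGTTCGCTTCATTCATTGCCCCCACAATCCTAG
ATP6 to COX3: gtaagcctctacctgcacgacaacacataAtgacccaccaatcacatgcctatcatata
ATP8 is 207 bases long, and 46 of them (22.2%) also belong to ATP6, while ATP6 and COX3 share 1 base. Library fragments were 150 to 200 bases per the labels, so few fit inside ATP8, and the sources used here do not say how reads in shared bases were counted. Levels of ATP8 are therefore uncertain, and how far its changes depend on reads in the 46 shared bases was not tested. GENCODE names 179 nuclear pseudogene copies of these 6 genes, none of which (0 of 179) has a row in the table, so sharing of reads with them was not measured.

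Values are normalised read counts, the reads of a gene divided by 1 size factor per library, from 24589435 to 46359070 reads per library. Whether the 4 libraries of a group stem from different cultures is not stated in the labels, and p-values therefore reflect the spread of these libraries, which may be technical. Untreated 3D replicate 1 stood apart, with each of the 6 mRNAs at 1.71 to 2.26 times the mean of the other 3 libraries of its group, and values without it are given beside the results it touches. As a check of the cell type, the summed counts of 10 catecholamine neuron markers ranged from 255516 to 283411 in untreated 2D cultures and from 248303 to 284631 in untreated 3D ones, with no marker under 10 in all libraries of a group. The dopamine transporter gene SLC6A3, also on that marker list, has no row in the deposited table, so this check does not cover it. SOX10, which defines Schwann cells, was under 10 in every library.

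Before treatment, all but ATP8 were among the most heavily sequenced rows, at ranks 1 to 17 by reads in the untreated 2D libraries, while ATP8 ranked from 1361 to 2725. Together the 6 took there 4.70 to 7.14% of all reads, with a mean of 5.88% ± 1.02 (SD, n = 4). COX1, the catalytic core of the oxidase, took 1.95 to 3.10% and ranked first in all 4 libraries. Counting error is negligible at such depth. ATP8 had far fewer reads, 3582 to 5184 per library, yet its SD was 20.4% of its mean normalised count, beside 20.9% for COX1.

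Per kilobase of gene, the order in untreated 2D was COX1, COX2, COX3, ATP6, CYTB and ATP8. The normalised count per kilobase was 594117 ± 124157 for COX1, 510337 ± 81302 for COX2, 482095 ± 75999 for COX3, 294793 ± 51255 for ATP6, 275320 ± 54532 for CYTB and 19384 ± 3952 for ATP8 (SD, n = 4 each). The ranges of COX1 and COX2, of COX2 and COX3, and of ATP6 and CYTB overlapped across libraries, which does not compare genes within a library. Within a library, COX1 was above COX2 in 4 of 4 libraries, COX2 above COX3 in 3 of 4, and ATP6 above CYTB in 4 of 4. Untreated 3D had the same order, with levels of 248845 ± 91313 for COX1 down to 6971 ± 3470 for ATP8 (SD, n = 4).

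The comparison of untreated 3D with untreated 2D sets the culture formats side by side without MPP, together with their different harvest steps. All 6 fell in 3D, to between 36.0 and 44.9% of their 2D means. In the limma test over 16984 genes, 23.0% of all genes were called lower and 23.2% higher in this comparison (Benjamini-Hochberg adjusted p under 0.05), against 6 of the 6 mRNAs. Groups did not overlap for any of the 6, a state that 20.3% of all genes reached in the lower direction. In bulk samples such as these, fewer cells of a type and less RNA per cell cannot be told apart.

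COX1 stood at 710233, 1157602, 964006 and 832669.8 in untreated 2D replicates 1 to 4, and at 591277, 277837, 335792 and 329969 in untreated 3D. The highest 3D library, replicate 1, stayed below the lowest 2D library. The log2 change was -1.30 (SE 0.17, limma adjusted p = 2.15e-06), the 3D mean being 2.39-fold lower. COX2, which holds the copper center that first takes electrons from cytochrome c, had 284956, 419067, 334947 and 357313 in 2D against 223209.9, 99278, 131405 and 133586 in 3D. COX3, the core subunit without metal centers, had 301641, 446864, 386693 and 376653 against 225836, 121789.5, 129148 and 146338. In both genes the groups were again apart, with 3D replicate 1 nearest to the 2D libraries, and the log2 changes were -1.30 (SE 0.17) and -1.31 (SE 0.15).

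CYTB counted 253729, 397247, 322797 and 282787 in untreated 2D and 198103, 92013.5, 107149.7 and 107709.6 in untreated 3D. ATP6, the subunit that forms the proton path of the ATP synthase, counted 159279, 242775, 209672 and 191290.1 against 143274, 63804, 73235 and 80114. ATP8, a small membrane subunit of the same enzyme, counted 3086, 5067, 4071 and 3825 against 2479, 1239.9, 818 and 1235. All 4 libraries of 3D were below all 4 of 2D for each of the 3 genes. Log2 changes were -1.36 (SE 0.17, limma adjusted p = 1.41e-06) for CYTB, -1.21 (SE 0.18, limma adjusted p = 1.14e-05) for ATP6 and -1.57 (SE 0.22, limma adjusted p = 4.95e-06) for ATP8.

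The 6 log2 changes thus lay between -1.57 and -1.21, with a median of -1.30, beside 0.01 for all genes tested and -1.04 for the 7 other mitochondrial mRNAs, which code for complex I and all fell. Without untreated 3D replicate 1 the 6 changes lay between -1.87 and -1.46, and each stayed called. The summed counts of 8 general neuron markers moved in the same comparison, from 94708 to 105245 in untreated 2D to 59029 to 64591 in untreated 3D, with 6 of the 8 called lower and 1 higher. Those of 10 mesenchymal and fibroblast markers moved from 15616 to 16440 to 11895 to 12749, with 6 of 9 tested called lower and PRRX1 and YAP1 under 10 in every untreated 3D library. Those of 7 Schwann cell and glia markers were low, 704 to 890 in untreated 2D and 901 to 989 in untreated 3D, with 0 of 6 tested called. Their part in the result was not tested.

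**Figure D1:**
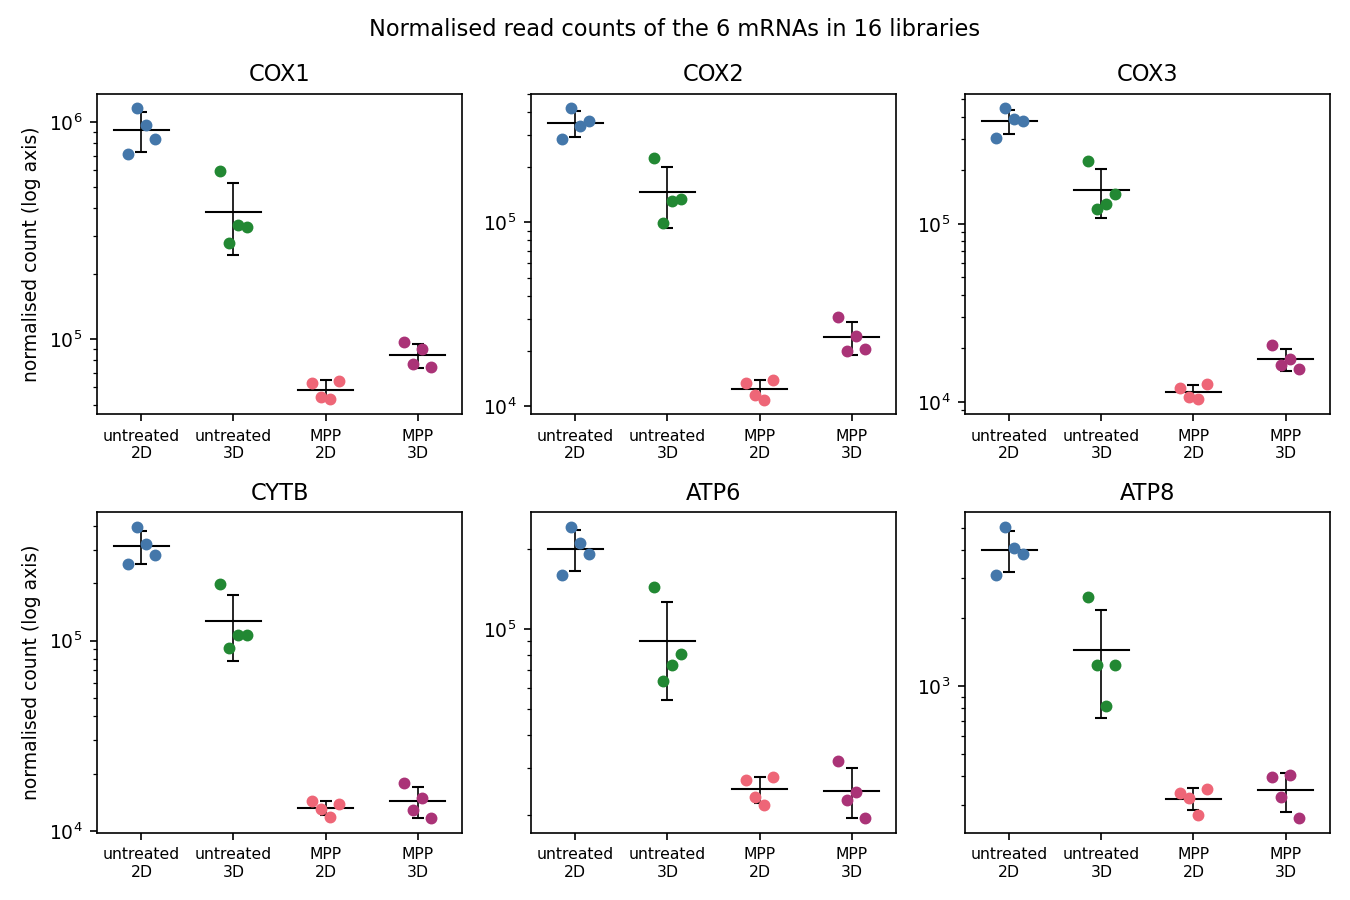
Normalised read counts of the 6 mRNAs (log axis) in the 4 groups on the horizontal axis, with 1 point per library in replicate order, the mean as a bar and the SD as whiskers (n = 4). Untreated 2D lies highest for all 6, untreated 3D replicate 1 (the left green point) lies above its group, and both MPP groups lie far below the untreated ones.

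MPP in 2D cultures asks how the complex I blocker acts on cells in a standard dish. All 6 mRNAs fell, and steeply: the treated means were 3.01 to 12.4% of the untreated ones. Of all genes, 16.9% were called lower and 17.7% higher by limma in this comparison and 19.0% had groups that did not overlap in that direction, against 6 of 6 mRNAs by either count. Together the 6 went from 5.88% of reads to 0.354% ± 0.0335 (SD, n = 4).

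COX3 fell most, to 11914, 10568, 10342.6 and 12631 in replicates 1 to 4, 33.3-fold below its untreated mean. COX2 fell 28.1-fold, to 13449, 11484, 10870.4 and 13940.5. CYTB fell 23.6-fold, to 14345, 13059, 11806 and 13931. Replicate 3 was the lowest of the treated libraries for all 6 mRNAs, and every treated value was below the lowest untreated value. The log2 changes were -5.05 (SE 0.15, limma adjusted p = 7.33e-17) for COX3, -4.80 (SE 0.17, limma adjusted p = 4.10e-15) for COX2 and -4.55 (SE 0.17, limma adjusted p = 1.03e-14) for CYTB.

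COX1 was left at 63005.5, 54292, 52849 and 64569, 15.6-fold lower. ATP8 was left at 336, 321, 269 and 350.2, 12.6-fold lower, from 242 to 416 reads. ATP6 was left at 27010.3, 23304, 21700.7 and 27610.0, 8.06-fold lower and the smallest change of the 6. Over the 6 mRNAs, each treated 2D library lay at 0.803 to 1.17 times the mean of the other 3, and all 4 were below the lowest untreated 2D library. Log2 changes were -3.95 (SE 0.17, limma adjusted p = 9.60e-14) for COX1, -3.63 (SE 0.22, limma adjusted p = 3.78e-11) for ATP8 and -3.00 (SE 0.18, limma adjusted p = 3.68e-11) for ATP6. The median of the 6 was -4.25, beside 0.02 for all genes and -3.08 for the 7 complex I mRNAs, of which ND3, the next mRNA after COX3 on the genome, fell by 5.57 on the log2 scale. The summed Schwann cell and glia markers went from 704 to 890 in untreated 2D to 959 to 1120 in MPP-treated 2D, with 3 of 6 tested called higher and SOX10 under 10 throughout. The sums of the other 3 marker lists overlapped between these groups. The part of these markers in the result was not tested.

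MPP in 3D cultures lowered the same 6 mRNAs, to 11.2 to 27.3% of the untreated 3D means. Limma called 17.6% of all genes lower and 17.0% higher, and 14.1% had groups apart in that direction, against 6 of 6 mRNAs by either count. Together they went from 2.47% ± 0.888 of reads to 0.483% ± 0.0720 (SD, n = 4). COX3 and CYTB fell most and ATP6 least.

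COX3 was at 20784, 16147, 17498 and 15205 in MPP-treated 3D, 8.95-fold below its untreated 3D mean, and CYTB at 17995, 12958, 14897 and 11776, 8.76-fold below. COX2 was at 30458, 19975, 24142 and 20555, 6.18-fold below. Every treated library was below every untreated one, and replicate 1 was the highest treated library for these 3. The log2 changes were -3.13 (SE 0.15, limma adjusted p = 2.53e-13) for COX3, -3.08 (SE 0.17, limma adjusted p = 5.95e-12) for CYTB and -2.58 (SE 0.17, limma adjusted p = 1.19e-10) for COX2.

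COX1 was at 97036, 76958, 89969 and 74136, 4.54-fold below the untreated mean. ATP8 was at 398, 325, 406 and 261, 4.15-fold below, from 284 to 441 reads. ATP6 was at 31889, 22768, 24374 and 19499, 3.66-fold below. Treated replicate 1 lay at 1.20 to 1.44 times the mean of the other 3 libraries and replicate 4 at 0.695 to 0.843 times, and the groups did not overlap. Log2 changes were -2.13 (SE 0.17, limma adjusted p = 2.41e-09) for COX1, -1.95 (SE 0.22, limma adjusted p = 5.09e-07) for ATP8 and -1.82 (SE 0.18, limma adjusted p = 8.22e-08) for ATP6.

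The median of the 6 was -2.36, beside 0.00332 for all genes and -1.48 for the 7 complex I mRNAs. Without untreated 3D replicate 1 the 6 changes lay between -2.93 and -1.57, all still called. The summed catecholamine markers were lower in the same comparison, 172514 to 220610 in MPP-treated against 248303 to 284631 in untreated 3D, with 5 of 10 called lower, 2 higher and none under 10 in all libraries. The mesenchymal and fibroblast sums were also apart, 10615 to 11432 against 11895 to 12749, with 2 of 9 tested called lower, among them COL1A1 (-0.96), and 2 higher. The general neuron sums overlapped, with 3 of 8 called lower, among them TUBB3 (-0.60), and 2 higher. Their part in the result was not tested.

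**Figure D2:**
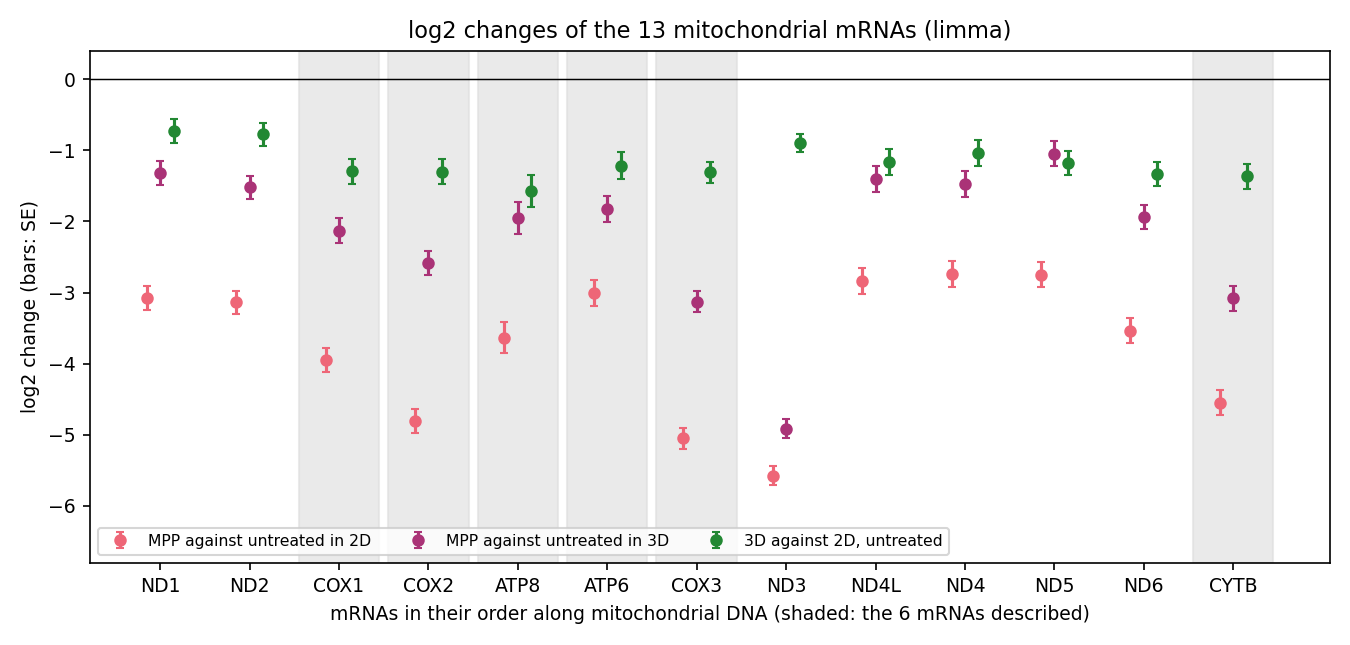
Log2 changes with SE bars (vertical axis, limma) of the 13 mitochondrial mRNAs in genome order (horizontal axis), for MPP in 2D, MPP in 3D and untreated 3D against 2D, with the 6 mRNAs shaded. Within the shaded genes, COX3 has the lowest and ATP6 the highest value in both MPP comparisons, although the 2 genes adjoin.

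The drop with MPP differed between culture formats for all 6 mRNAs. The difference of the MPP effects (the log2 change in 3D minus that in 2D) was positive for each and called by limma for 6 of 6, where 7.0% of all genes were called in that direction. It was 2.22 (SE 0.25, limma adjusted p = 8.90e-07) for COX2, 1.92 (SE 0.21, limma adjusted p = 6.84e-07) for COX3 and 1.82 (SE 0.24, limma adjusted p = 1.06e-05) for COX1. It was 1.68 (SE 0.31, limma adjusted p = 5.64e-04) for ATP8, 1.46 (SE 0.25, limma adjusted p = 1.89e-04) for CYTB and 1.18 (SE 0.26, limma adjusted p = 0.00264) for ATP6. The median was 1.75, beside -0.02 for all genes and 1.60 for the 7 complex I mRNAs. Without untreated 3D replicate 1 the 6 differences lay between 1.43 and 2.44.

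Starting levels in 3D were lower, so the end points are described on their own. Under MPP, 3D stood above 2D for the 3 oxidase mRNAs, while the other 3 did not pass the test. Limma called 19.0% of all genes higher and 19.9% lower in 3D under MPP, against 3 of the 6 mRNAs, and 18.5% of all genes had groups apart in that direction, again against 3 of 6. COX2 was 1.91-fold higher in the mean (log2 0.92, SE 0.17, limma adjusted p = 2.17e-04) and COX3 1.53-fold (log2 0.61, SE 0.15, limma adjusted p = 0.00226). COX1 was 1.44-fold higher (log2 0.52, SE 0.17, limma adjusted p = 0.0192), and the lowest 3D library (74136) was above the highest 2D library (64569).

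The COX1 call was lost with DESeq2 (adjusted p = 0.0592) and in limma without MPP-treated 2D replicate 2 (adjusted p = 0.0515), without MPP-treated 2D replicate 3 (adjusted p = 0.0592) or without MPP-treated 3D replicate 1 (adjusted p = 0.0649). Over all alternatives its adjusted p ran from 3.31e-04 to 0.0649. For CYTB the log2 difference was 0.10 with a 95% interval of -0.26 to 0.47, for ATP6 -0.03 with -0.41 to 0.35, and for ATP8 0.11 with -0.35 to 0.57. The groups overlapped for these 3, and each interval spans 0. The 7 complex I mRNAs had a median of 0.27 in this comparison, beside 0.32 for the 6, with 3 called higher. Marker sums were apart in the same comparison and lower in 3D. General neuron markers summed to 48816 to 62048 in 3D against 93889 to 108337 in 2D, with 6 of 8 called lower and 1 higher. Mesenchymal and fibroblast markers summed to 10615 to 11432 against 16394 to 17542, with 6 of 9 tested called lower and 0 higher. Catecholamine markers summed to 172514 to 220610 against 241582 to 258042, with 5 of 10 called in each direction. Their part in the result was not tested.

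Since the 13 mitochondrial mRNAs fell together, the make-up of that pool was examined next, as the share of each mRNA in their summed normalised count within a library. Shares are not per length, so they are compared between groups and not between genes. Each of the 6 mRNAs was compared on the log2 share in 4 comparisons by a two-sided exact permutation test of 4 against 4 libraries, whose smallest possible p is 0.0286. The 24 p-values were adjusted by the Benjamini-Hochberg method, and 17 passed, each at an adjusted exact permutation p of 0.0403.

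With MPP the shares moved apart. In 2D cultures the COX3 share was 10.7, 10.3, 10.5 and 11.3% in untreated replicates 1 to 4 and 3.72, 3.74, 3.86 and 3.89% in treated ones. The COX2 share was 10.1, 9.65, 9.12 and 10.8% against 4.196, 4.07, 4.06 and 4.299%. The CYTB share was 9.03, 9.15, 8.79 and 8.51% against 4.48, 4.62, 4.41 and 4.296%. In each of the 3 the groups were far apart, with log2 share differences of -1.49 (SE 0.03), -1.25 (SE 0.05) and -0.99 (SE 0.03), and all 3 passed. Among the 6 mRNAs alone these differences were smaller, at -0.90, -0.66 and -0.40, and again passed.

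ATP6 moved the other way within the pool. Its share was 5.67, 5.59, 5.71 and 5.76% in untreated 2D and 8.43, 8.25, 8.10 and 8.51% in MPP-treated 2D, a log2 difference of 0.55 (SE 0.02) that passed, and 1.15 among the 6 mRNAs alone. In 3D the share was 5.47% ± 0.275 untreated and 5.76% ± 0.258 with MPP (SD, n = 4), and the difference of 0.074 (SE 0.049, adjusted exact permutation p = 0.196) did not pass. It depended on the reference pool, being 0.36 with centred log ratios over the 13 mRNAs (adjusted exact permutation p = 0.0381) and 0.58 among the 6 mRNAs alone (adjusted exact permutation p = 0.0457), and it passed with both. Under MPP, the ATP6 share was lower in 3D than in 2D by 0.53 on the log2 scale (SE 0.04), which passed.

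In 3D cultures with MPP, the COX3 share went from 9.66% ± 0.714 to 4.10% ± 0.131, the CYTB share from 7.69% ± 0.165 to 3.38% ± 0.0819 and the COX2 share from 8.97% ± 0.496 to 5.57% ± 0.284 (SD, n = 4 each). These log2 differences of -1.23, -1.19 and -0.69 passed, the last not when the share was taken among the 6 mRNAs alone (-0.18, adjusted exact permutation p = 0.0722). Among the 6 alone the COX3 and CYTB differences were -0.72 and -0.68 and still passed. Comparing 3D with 2D under MPP, the share of COX2 was higher by 0.42, that of COX3 by 0.11 and that of CYTB lower by -0.40 (log2), and all 3 passed, that of COX3 being 0.21 with centred log ratios. CYTB thus held a smaller part of the pool in treated 3D cells than in treated 2D cells, while its normalised counts in the 2 groups overlapped.

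The shares of COX1 and ATP8, like that of ATP6 in 3D, depended on what they were set against. COX1 held 25.8% ± 0.765 of the pool in untreated 2D, 23.4% ± 0.174 in untreated 3D, 19.6% ± 0.294 in MPP-treated 2D and 19.96% ± 1.16 in MPP-treated 3D (SD, n = 4 each), and the groups were apart in the 3 comparisons that involve an untreated group. The log2 differences of -0.39 with MPP in 2D, -0.23 with MPP in 3D and -0.14 in untreated 3D passed. Among the 6 mRNAs alone the same differences were 0.20, 0.28 and 0.00556, and with centred log ratios over the 13 the value for MPP in 3D was 0.049, so the direction of the COX1 share is tied to the reference pool. The COX1 difference between 3D and 2D under MPP, 0.022 among the 13 (adjusted exact permutation p = 0.656), was 0.13 with centred log ratios and passed there (adjusted exact permutation p = 0.0381).

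ATP8 held 0.110, 0.117, 0.111 and 0.115% of the pool in untreated 2D and 0.0990, 0.104, 0.0574 and 0.0874% in untreated 3D, where replicate 3 was far below the others. The log2 difference of -0.42 (SE 0.20) passed but shrank to -0.23 without untreated 3D replicate 3, and among the 6 mRNAs alone it did not pass (adjusted exact permutation p = 0.196). The difference between 3D and 2D under MPP, -0.39 (SE 0.09), also passed, but with centred log ratios it did not (adjusted exact permutation p = 0.0686). In untreated cells the shares of COX2 and COX3 (-0.14 and -0.15 in 3D, adjusted exact permutation p = 0.108 and 0.0762) and of ATP6 (-0.057, p = 0.312, adjusted, same test) did not pass, although with centred log ratios that of COX3 did (-0.14, adjusted exact permutation p = 0.0381). That of CYTB was lower in 3D by -0.21 and passed, but not among the 6 mRNAs alone (adjusted exact permutation p = 0.103).

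**Figure D3:**
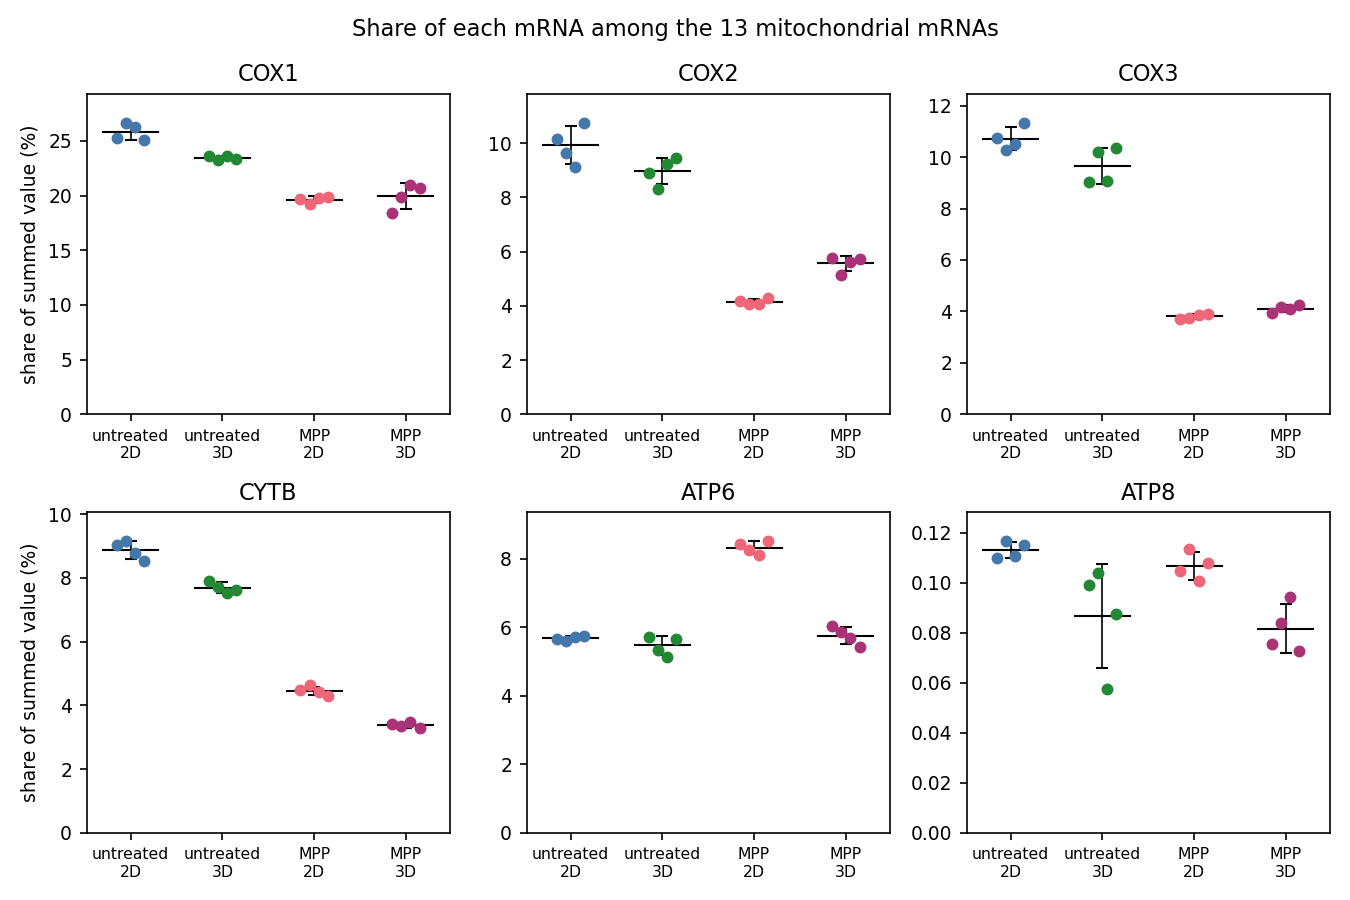
Share of each of the 6 mRNAs in the summed normalised count of the 13 mitochondrial mRNAs (vertical axis, percent, from 0) in the 4 groups, with 1 point per library, the mean as a bar and the SD as whiskers (n = 4). COX2, COX3 and CYTB shares are lower in both MPP groups, and the ATP6 share is highest in MPP-treated 2D.

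Ratios within a library give the same re-ordering without a reference pool, and only their change between groups is read, since they are not per length. The ratio of ATP6 to the adjoining COX3 was 0.528, 0.543, 0.542 and 0.508 in untreated 2D and 2.27, 2.21, 2.10 and 2.19 in MPP-treated 2D. In 3D it was 0.634, 0.524, 0.567 and 0.547 untreated and 1.53, 1.41, 1.39 and 1.28 with MPP. The treated and untreated libraries were therefore apart in both formats, and all MPP-treated 3D libraries lay between untreated 3D and MPP-treated 2D.

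The ratio of COX1 to COX2, mRNAs of the same enzyme, was 2.62 ± 0.250 without treatment in 2D, 2.62 ± 0.141 without treatment in 3D, 4.73 ± 0.0983 in MPP-treated 2D and 3.59 ± 0.289 in MPP-treated 3D (SD, n = 4 each). Treated and untreated libraries did not overlap in either format, so these oxidase mRNAs kept no fixed proportion to each other across treatment. The ratio of CYTB to COX3 was 0.83 ± 0.057, 0.800 ± 0.0656, 1.17 ± 0.0600 and 0.824 ± 0.0425 in the same order of groups, with only MPP-treated 2D lying apart from the other 3 groups. The ratio of ATP6 to ATP8, which share an mRNA, was 50.3 ± 1.72, 65.9 ± 16.7, 78.1 ± 3.71 and 71.2 ± 8.47. In MPP-treated 2D it was above every untreated 2D library, and in 3D the treated and untreated libraries overlapped.

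**Figure D4:**
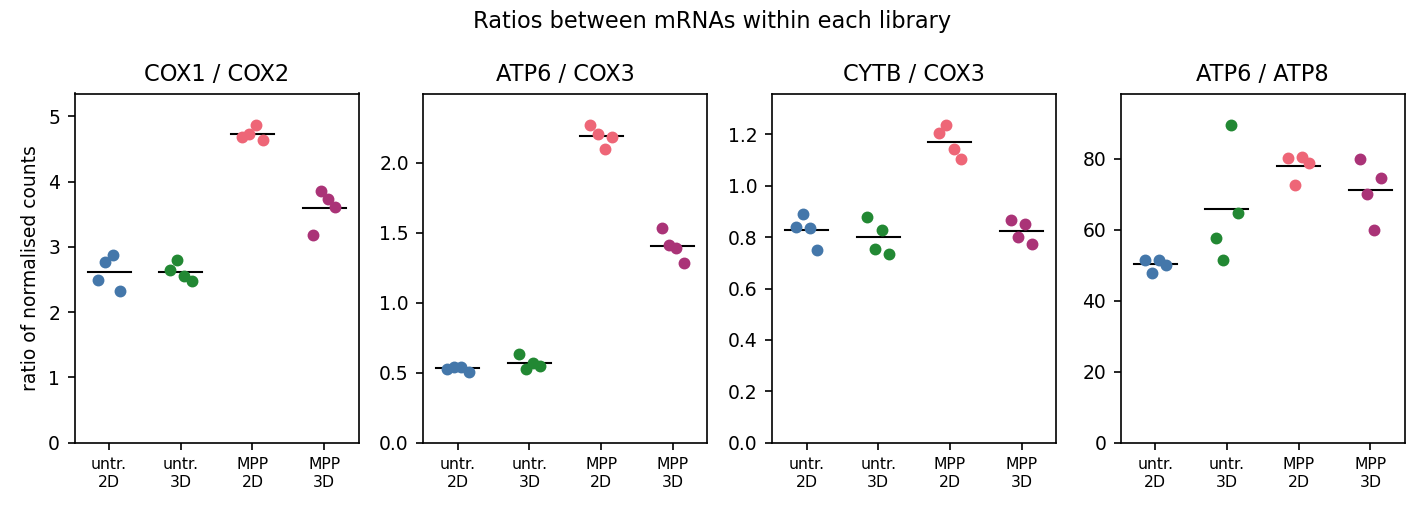
Ratios of normalised counts between pairs of mRNAs within each library (vertical axes, from 0) in the 4 groups, with 1 point per library and the mean as a bar. ATP6 to COX3 separates all treated from all untreated libraries, and COX1 to COX2 does so too.

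Per kilobase, the order of the 6 changed with MPP in both formats: ATP6 moved from place 4 to place 2, passing COX2 and COX3. COX2 thereby moved to place 3 and COX3 to place 4. In MPP-treated 2D the normalised counts per kilobase were 38054 ± 3867 for COX1, 36573 ± 4203 for ATP6, 18181 ± 2176 for COX2, 14495 ± 1394 for COX3, 11644 ± 984 for CYTB and 1541 ± 170.0 for ATP8 (SD, n = 4 each). COX1 and ATP6 overlapped there, while ATP6 was 1.99 to 2.04 times COX2 in each library. In MPP-treated 3D, ATP6 (36171 ± 7703) and COX2 (34770 ± 7042) overlapped, and ATP6 was the higher in 3 of 4 libraries.

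The 2 mitochondrial rRNAs come from the same strand as the 6 mRNAs, and their rows were set beside them. In untreated 3D both were lower than in 2D, RNR1 by -1.48 and RNR2 by -1.23 on the log2 scale, much as the mRNAs were. With MPP in 2D, RNR1 fell by 0.58 and RNR2 by 1.38, far less than the -5.05 to -3.00 of the 6 mRNAs. With MPP in 3D, RNR1 rose by 2.31 (SE 0.13, limma adjusted p = 4.69e-12) and RNR2 by 0.86 (SE 0.16, limma adjusted p = 2.44e-04), while all 6 mRNAs fell.

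The ratio of COX3 to RNR2, again not per length, was 0.697, 0.675, 0.663 and 0.665 in untreated 2D and 0.0546, 0.0519, 0.0518 and 0.0544 with MPP. In 3D it was 0.589, 0.685, 0.617 and 0.668 untreated and 0.0489, 0.0383, 0.0387 and 0.0361 with MPP. Each treated library was far below each untreated one in both formats. Ribosomal RNA is measured here only as far as it was retained by poly-T capture, so the RNR1 and RNR2 rows give no total rRNA level.

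The nuclear genes for the partner subunits of these complexes had medians near 0, although COX4I2, described further on, moved by more than the 6 mRNAs in 3D. Of the 15 tested nuclear genes for oxidase subunits (of 16), 1 was called higher and 3 lower with MPP in 2D, and 0 higher and 1 lower with MPP in 3D, with medians of 0.04 and -0.03 (log2). Of the 9 nuclear genes for complex III, 1 was higher and 3 lower in either format, with medians of -0.06 and -0.02. Of the 18 nuclear ATP synthase genes, 0 were higher and 7 lower in 2D, and 0 higher and 6 lower in 3D, with medians of -0.17 and -0.19, beside medians of 0.02 and 0.00332 for all genes. Of all genes, 17.7% were called higher and 16.9% lower in 2D, and 17.0% higher and 17.6% lower in 3D.

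Among them, ATP5F1D, the delta subunit of the ATP synthase, fell with MPP by 0.58 in 2D (limma adjusted p = 1.47e-05) and by 0.63 in 3D (limma adjusted p = 5.08e-06). UQCRQ, a small complex III subunit, fell by 0.37 and 0.41. COX6B2, a subunit 6B isoform best known from testis, rose with MPP in 2D from 705 ± 70.4 to 2028 ± 194 (SD, n = 4, log2 1.52, limma adjusted p = 1.36e-08), and was 743 ± 178 untreated and 678 ± 65.6 treated in 3D (log2 -0.10, limma adjusted p = 0.581). The difference of the MPP effects on COX6B2 was -1.63 (limma adjusted p = 1.60e-06).

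In untreated 3D against 2D, the oxidase list had 1 higher and 1 lower of 15 (median 0.04), the complex III list 3 higher and 1 lower of 9 (median 0.11), and the ATP synthase list 2 higher and 1 lower of 18 (median -0.03), beside 0.01 for all genes. Limma called 23.2% of all genes higher and 23.0% lower there. The oxidase gene called higher was COX4I2, an alternative isoform of subunit 4, at 19.8 ± 3.98 in untreated 2D and 238 ± 30.6 in untreated 3D (SD, n = 4, log2 3.53, limma adjusted p = 2.61e-07). With MPP it fell in 3D to 20.6 ± 12.3 (log2 -3.71, limma adjusted p = 2.67e-07), and in 2D it was 11.6 ± 2.86 (log2 -0.73, limma adjusted p = 0.170). CYC1, cytochrome c1 of complex III, went from 2211 ± 41.9 normalised counts in untreated 2D to 2955 ± 184 in untreated 3D (SD, n = 4 each, log2 0.42, limma adjusted p = 1.32e-04), a direction opposite to that of CYTB in the same complex.

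Factors that assemble the 3 complexes had small median changes, and their calls were mostly in the lower direction in 2D. Of all genes, 16.9% were called lower and 17.7% higher in 2D, and 17.6% lower and 17.0% higher in 3D. With MPP in 2D and in 3D, 2 of 6 complex III factors were lower in either format and 0 higher. Of 23 oxidase factors, 1 was higher and 2 lower in 2D, and 2 higher and 1 lower in 3D. Of 5 ATP synthase factors, 2 were lower in 2D and 1 in 3D, among them TMEM70, which helps assemble the ATP synthase rotor (-0.56 and -0.49). Medians were -0.19 and -0.08, -0.06 and 0.06, and -0.27 and -0.16 for the 3 lists in 2D and 3D.

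Genes for mitochondrial transcription and RNA upkeep were the list most directly concerned with making and keeping these mRNAs. Of the 33 tested (of 34), 4 were higher and 12 lower with MPP in 2D (median -0.17), and 3 higher and 9 lower with MPP in 3D (median -0.05). Over all genes, 17.7% were called higher and 16.9% lower in 2D, and 17.0% higher and 17.6% lower in 3D. FASTKD5, which is needed to cut mitochondrial precursor RNAs where no tRNA marks the junction, went from 925 ± 96.6 to 475 ± 54.2 in 2D (log2 -0.96, limma adjusted p = 4.13e-07) and from 1011 ± 63.3 to 505 ± 46.7 in 3D (log2 -1.003, limma adjusted p = 1.79e-07; SD, n = 4 each). REXO2, an exonuclease that clears short RNAs, fell by 0.70 in 2D, and TRMT10C, a subunit of the enzyme that cuts tRNA 5′ ends, fell by 0.71 in 3D. POLG, the mitochondrial DNA polymerase, rose by 0.48 in 2D, and ELAC2, which cuts tRNA 3′ ends, rose by 0.45 in 3D.

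In untreated 3D the same list had 6 higher and 5 lower of 33 (median 0.09), and under MPP 3D had 8 higher and 3 lower than 2D (median 0.10). Shares over all genes were 19.0% higher and 19.9% lower under MPP, and 23.2% higher and 23.0% lower in untreated 3D. TFB2M, a factor that starts mitochondrial transcription, was higher in 3D by 0.58 (limma adjusted p = 4.57e-04), while the 6 mRNAs were lower. SUPV3L1, a helicase of the RNA-degrading complex, was higher in 3D by 0.60 (limma adjusted p = 3.73e-05). HSD17B10, another subunit of the tRNA 5′-end enzyme, was lower in 3D by -0.65 untreated and -0.64 under MPP.

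The genes with the most similar pattern over the 16 libraries were sought among 14031 genes with a mean count of 50 or more. Likeness was the root mean square difference between the centred log2 profile of a gene and the centred mean profile of the 6 mRNAs, where a smaller value means more alike. Outside the 6, the nearest gene was ND6 at 0.30, the complex I mRNA made from the other strand of mitochondrial DNA. The nearest nuclear genes were C17orf97 (0.86), HNRNPM (0.89), LRRN3 (1.00), FOXR2 (1.02) and CCDC177 (1.03), against a median of 1.77 over nuclear genes. A flat profile would give 1.75, the root mean square of the mean profile itself. These nuclear genes were all called lower by limma with MPP in both formats. In untreated 3D against 2D, HNRNPM (log2 -0.50) and CCDC177 (-1.11) were called lower, while C17orf97 (-0.20), LRRN3 (0.03) and FOXR2 (-0.14) were not called. None of them passed for the difference of the MPP effects.

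HNRNPM, which codes for a nuclear splicing factor, was at 6564 ± 167 and 4663 ± 497 in the untreated 2D and 3D groups, 1555 ± 371 in MPP-treated 2D and 1624 ± 408 in MPP-treated 3D (SD, n = 4 each). It fell by 2.10 with MPP in 2D and by 1.55 in 3D, and its difference of MPP effects, 0.56 (limma adjusted p = 0.0648), did not pass. With MPP in 2D the lowest log2 change among these 5 nuclear genes was that of HNRNPM, against -5.05 to -3.00 for the 6 mRNAs. All these likenesses rest on the same 16 libraries and are a description only.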

How the data were processed

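The authors deposited a table of read counts per gene scaled by 1 size factor for each library, which makes them a signal with no negative values. The submitters' processing notes name DESeq2, featureCounts, STAR, FastQC and CASAVA 1.8.2, and the build GRCh38.p13. The sources used here do not give settings, annotation or strandedness, so sense and antisense reads cannot be told apart. Every value was a whole multiple of its library's step (100% of values, tolerance 0.01 reads), so whole reads were recovered. Libraries of a group differed by more than sampling noise in all 24 pairs (chi-square per degree of freedom of 6.43 or more).

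Sample titles gave the group and replicate number. All 16 libraries entered 1 limma-trend fit (limma 3.58.1, R 4.3.3) of log2(value + 1), for the 16984 genes that reached 10 in at least 4 libraries. Calls were made under 0.05 after Benjamini-Hochberg adjustment, and the procedure was tested on simulated data. Log2 changes on this scale understate those of low genes. Share tests were exact permutation tests over the 70 splits of 8 libraries. Alternatives were equal library totals, equal totals of nuclear-encoded genes, pseudocounts of 0.5 and 5, a minimum mean of 50, no filter, DESeq2 1.42.0 or edgeR 4.0.16 (quasi-likelihood) on recovered reads, only the groups compared, a replicate block, leaving out each library and, for shares, the 6 mRNAs alone or centred log ratios over the 13 as the reference pool.

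The 6 mRNAs, the gene lists and the marker lists were chosen with earlier results of these data known. Besides the 13 mitochondrial mRNAs, genes could be named if they were called, had a mean of 50 or more and were among the 2 strongest of their list in each direction, or if they were among the 5 nuclear genes nearest in pattern. SOX10, PRRX1 and YAP1 fall outside this rule and are named as markers with very low counts. The dopamine transporter gene SLC6A3 is not analysed here. ATP5MJ and ATP5MK were matched as ATP5MPL and ATP5MD. Sequences and positions came from GRCh38 with GENCODE release 29.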

Additional observations from a re-analysis of the deposited data

Results flagged for a closer look

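CYTB in untreated 3D replicate 1 had a normalised count of 198103, far from the other 3 libraries of its group by the gap between neighbours relative to the whole range. Chance flags about 1 in 20 groups in this way. The same library was the highest of its group for all 6 mRNAs.

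The log2 change with MPP differed between 3D and 2D (limma, 3D minus 2D) for COX1 by 1.82, for COX2 by 2.22, for COX3 by 1.92, for CYTB by 1.46, for ATP6 by 1.18 and for ATP8 by 1.68. Each was positive and called, the smallest being that of ATP6.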

How the results depend on the processing

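The number of the 6 mRNAs called was 6 under every alternative for untreated 3D against 2D, MPP in 2D, MPP in 3D and the difference of the MPP effects, and 2 to 3 for 3D against 2D under MPP, where the COX1 call was lost in 4 of 26. Leaving out 1 library moved the count in the last comparison between 2 and 3 and left the others at 6. Among shares, 17 of 24 passed, against 15 among the 6 mRNAs alone and 18 with centred log ratios, and the ATP6 share with MPP in 3D passed under both of these but not among the 13. Against the 6 mRNAs alone, the COX1 share differences turned to 0.00556 (untreated 3D), 0.20 (MPP in 2D) and 0.28 (MPP in 3D) and the ATP8 share with MPP in 2D from -0.085 to 0.51. With centred log ratios the COX1 share with MPP in 3D turned to 0.049. Replicate numbers did not pair the libraries: over 24 same-number pairs the correlation of deviations was -0.115 to 0.0896, 0 were over 0.1, and 5 of 16 libraries correlated best with their own number. With the replicate block the calls among the 6 were again 6, 6, 6, 3 and 6, and all-gene calls were 7634 against 7830 (untreated 3D) and 2436 against 2602 (difference of effects). Equal library totals moved the median of all genes to 0.12 with MPP in 2D. They moved the share of calls that were higher from 51.1 to 70.3% with MPP in 2D and from 49 to 66% in 3D. Equal nuclear totals moved it from 50.2 to 38.3% in untreated 3D, from 49 to 59.3% with MPP in 3D and from 45.7 to 66.9% for the difference of effects. Depth limits ATP8 most, at 242 to 583 reads in the lowest library of each group but untreated 2D.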

Other observations

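The 6 mRNAs did not all resemble each other most. Over the 16 libraries, the root mean square difference between centred log2 profiles was 0.24 between COX3 and COX2 and 0.24 between COX3 and CYTB, although CYTB lies far from the oxidase genes on the genome. ATP6 was nearest to the complex I mRNAs ND4 (0.20), ND4L (0.21) and ND6 (0.22), ahead of ATP8 (0.29) on its own mRNA and far ahead of the adjoining COX3 (0.87). COX1 was nearest to ND6 (0.19), then ATP8 (0.29) and COX2 (0.37). COX3 and ND3, which are neighbours on the genome, differed by 0.70.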
